A study of Homo sapiens with 24 samples.

Results

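GSK-LSD1, an inhibitor of the histone demethylase LSD1, was set against its solvent DMSO in MV4-11 cells. This comparison rests on 6 of the 24 RNA-seq libraries of the series, those labelled LSD1 A, B and C and DMSO A, B and C. MV4-11 is an established human acute myeloid leukaemia line with the MLL-AF4 fusion, and its labels give the genotype as PRMT5 +/+. GSK-LSD1 was given at 10 nM for 3 days, and the DMSO cells were kept for 3 days. The same inhibitor was also given at 10 nM together with 3 nM PRT220, a PRMT5 inhibitor, against 3 nM PRT220 alone, both for 3 days. MS023, which inhibits type I arginine methyltransferases, was also used with and without GSK-LSD1, at doses and times the labels do not give. Libraries treated with the compounds MC4455 and MC4491 entered the filter and fit of all 24 libraries, but none of the comparisons. Each of the 8 groups of the series held 3 libraries of 1 line, and the labels do not say whether they came from separate cultures. The p-values therefore measure only the spread between these samples, which may be technical.

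LSD1 is the product of KDM1A, strips methyl groups off lysine 4 of histone H3 and works inside the CoREST complex with the deacetylases HDAC1 and HDAC2. In myeloid cells the repressors GFI1 and GFI1B recruit this complex through their SNAG domain, and LSD1 inhibitors are known to displace it from them and to promote the maturation of MLL-rearranged leukaemia cells. The genes that GFI1 holds down in such cells include surface receptors and enzymes of monocytes and dendritic cells.

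Levels are given in CPM, a gene's estimated counts scaled to a library total of 1e+06 after TMM scaling between libraries, for replicates A, B and C in that order or as the mean ± SD with n = 3 per group. Library totals were 39966329 to 44954378 estimated counts with GSK-LSD1, against 37096387 to 61090593 with DMSO. DMSO replicate C stood apart from the other 5 libraries. The RRP9 level before scaling was 31.7 to 33.9 CPM in the GSK-LSD1 libraries, against 1.1 CPM in DMSO replicate C and 35.1 and 32 CPM in DMSO replicates A and B. The share of counts on mitochondrial transcripts was 0.511% to 0.623% with GSK-LSD1, against 0.369% in DMSO replicate C and 0.536% to 0.583% in the other DMSO libraries. Over the 6 libraries the treatment lay along the first principal component, with 56.5% of the variance, and DMSO replicate C left replicates A and B along the second, with 17.2%. Myeloid markers bore out the labelled cell type: CD33 averaged 77 ± 2.02 CPM with GSK-LSD1 and 65.9 ± 5.52 CPM with DMSO, CSF1R 129 ± 7.51 CPM with GSK-LSD1 and 96.4 ± 8.92 CPM with DMSO and LYZ 2477 ± 77.1 CPM with GSK-LSD1 and 916 ± 32.7 CPM with DMSO, while CD14 was near 0 at 0.36 CPM with GSK-LSD1 and 0.184 CPM with DMSO. CD3D, HBB and EPCAM, markers of other lineages, had at most 2 counts per library in these 6 libraries. Some other members of their lists were expressed, and the sums of those lists are given below.

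GSK-LSD1 changed many genes by a little and a smaller number by a lot, and the large changes were mostly rises. Of 16640 genes tested, 5419 (32.6%) passed the quasi-likelihood test of edgeR (adjusted p under 0.05), 2925 (17.6%) higher and 2494 (15%) lower than with DMSO. The median log2 fold change was 0.396 among the genes that rose and fell by 0.300 among those that fell. At least a 2-fold change was found for 560 genes (3.37%) that rose and 226 (1.36%) that fell. At 8-fold or more there were 89 risen genes and 10 fallen ones. Every GSK-LSD1 library lay to 1 side of every DMSO library for 5220 of the 5419 genes, which was also true of 7696 of all 16640 genes (46.2%). The median log2 fold change of all tested genes was 0.0286, and each gene list below is read beside that value and beside the 17.6% and 15% of genes called in each direction. Genes entered the test by a filter on low counts over all 24 libraries. A gene near 0 with DMSO passed it only through other groups, so it could show a rise but hardly a fall.

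Large rises were found mostly at low levels. Of the 3118 genes with a mean of at most 1 CPM over the series, 7.06% rose at least 2-fold, and of the 2519 genes above 100 CPM, 0.675% did. Between these ends the share was 5.68% at 1 to 5 CPM, 3.63% at 5 to 20 CPM and 1.31% at 20 to 100 CPM. Falls of at least 2-fold took 3.08% of the lowest class and 0.119% of the highest. Among genes with a DMSO mean below 0.5 CPM, 265 rose, and 3 of those reached at least 5 CPM with GSK-LSD1. In the other direction 116 called genes had a GSK-LSD1 mean below 0.5 CPM, and 0 of these had at least 5 CPM with DMSO.

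**Figure D1:**
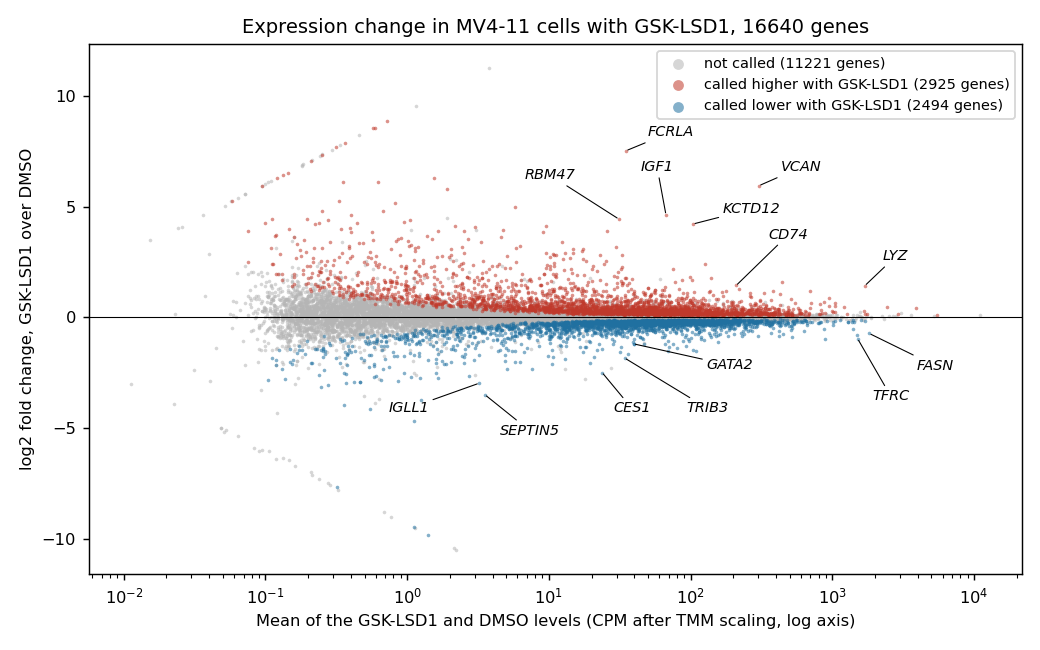
Log2 fold change of GSK-LSD1 over DMSO (vertical axis) against the mean of the GSK-LSD1 and DMSO levels in CPM on a log axis (horizontal) for the 16640 tested genes, with genes called higher in red and lower in blue at an adjusted p below 0.05 and a few named. The straight diagonal rows at low levels are genes at 0 in every library of 1 group, whose plotted value depends on the prior count. The cloud is taller above 0 than below it, with 89 risen and 10 fallen genes at 8-fold or more.

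The drug's target and its partners changed little at the RNA level, and the repressors that recruit them moved in both directions. KDM1A (ENSG00000004487, chromosome 1, 23019443 to 23083689) had 112, 112 and 107 CPM with GSK-LSD1, against 131, 118 and 119 CPM with DMSO. The groups did not overlap, and the level was slightly lower with GSK-LSD1 (log2 fold change -0.15, SE 0.04, edgeR adjusted p = 0.00711), but without DMSO replicate A the log2 fold change was -0.107 with an adjusted p of 0.0635. RNA is no measure of the enzyme's inhibition. Of the 22 tested members of the complex and its recruiting repressors, 4 rose (18.2%) and 5 fell (22.7%), against 17.6% and 15% of all tested genes, at a median log2 fold change of -0.05. The number that fell was 3 without DMSO replicate A and 8 with no scaling beyond the total count. The CoREST scaffold RCOR1 averaged 171 ± 4.98 CPM with GSK-LSD1 and 165 ± 11.1 CPM with DMSO (log2 fold change 0.05, SE 0.04, edgeR adjusted p = 0.458), and HDAC1 averaged 181 ± 2.55 CPM with GSK-LSD1 and 191 ± 3.61 CPM with DMSO (log2 fold change -0.08, SE 0.04, edgeR adjusted p = 0.192). PHF21A, the reader of unmethylated lysine 4, fell to 39.6 CPM, against 50.2 CPM with DMSO (log2 fold change -0.34, SE 0.08, edgeR adjusted p = 0.00166).

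Among the recruiting repressors, GFI1 had 402, 405 and 418 CPM with GSK-LSD1, against 318, 325 and 309.7 CPM with DMSO (log2 fold change 0.36, SE 0.03, edgeR adjusted p = 6.17e-09). GFI1B, its close relative in red cell and platelet precursors, had 4.67, 3.96 and 3.98 CPM with GSK-LSD1, against 0.9, 1.3 and 1.44 CPM with DMSO (log2 fold change 1.78, SE 0.22, edgeR adjusted p = 1.65e-06). All GSK-LSD1 libraries were above all DMSO libraries for both, and GFI1B stayed a low-level transcript. HIC1, a zinc finger repressor that binds CtBP, had 37.9, 42.2 and 42.9 CPM with GSK-LSD1, against 5.84, 7.88 and 9.5 CPM with DMSO (log2 fold change 2.40, SE 0.18, edgeR adjusted p = 1.01e-09). ZNF217, a zinc finger partner of CoREST, had 501, 513 and 524 CPM with GSK-LSD1, against 335, 363 and 336 CPM with DMSO (log2 fold change 0.57, SE 0.04, edgeR adjusted p = 1.79e-09). These rises left no overlap between the groups. The SNAG-domain factor SNAI1 fell, with 1.11, 1.28 and 1.21 CPM with GSK-LSD1, against 2.02, 2.55 and 3.18 CPM with DMSO (log2 fold change -1.11, SE 0.21, edgeR adjusted p = 0.000246). ZEB2 and RREB1, which also bind CtBP or CoREST, had log2 fold changes of -0.07 and -0.08 and did not pass the test.

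GFI1 and GFI1B are known to bind their own and each other's promoters, so both promoters are printed here from RefSeq on GRCh38.p14, 250 bases before to 50 after the start. GFI1 lies at chr1:92486876-92487175, minus strand, and GFI1B at chr9:132945281-132945580, plus strand. Capitals mark a match to AATCNNNGC, the GFI1 core with flanking bases, searched on both strands.
GFI1: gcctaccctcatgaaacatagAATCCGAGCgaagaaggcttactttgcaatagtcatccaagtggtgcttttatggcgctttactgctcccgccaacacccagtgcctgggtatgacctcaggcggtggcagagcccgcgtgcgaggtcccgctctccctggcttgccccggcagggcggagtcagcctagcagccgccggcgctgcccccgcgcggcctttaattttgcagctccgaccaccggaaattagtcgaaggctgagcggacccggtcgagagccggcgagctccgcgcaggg
GFI1B: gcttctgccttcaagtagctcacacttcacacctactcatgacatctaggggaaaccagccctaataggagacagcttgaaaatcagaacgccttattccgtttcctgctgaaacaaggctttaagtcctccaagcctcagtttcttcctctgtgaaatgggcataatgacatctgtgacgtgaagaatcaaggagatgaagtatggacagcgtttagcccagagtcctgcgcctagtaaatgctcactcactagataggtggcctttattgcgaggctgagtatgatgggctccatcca
The GFI1 window held 1 match and the GFI1B window held none of the 5 motifs searched here. The same motif stood in 14.8% of the 331 promoters found for genes that rose at least 2-fold, in 12.1% of 11283 promoters of tested genes and in 11.2% of all 27305 promoters of that length. A match is a description of the letters and says nothing about binding.

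The largest rises were those of FCRLA, VCAN and RTN4RL1 among genes of moderate or high level. The genes described here come, per direction, from the 15 called genes of largest log2 fold change whose higher mean was 5 CPM or more and whose groups did not overlap. FCRLA (ENSG00000132185, chromosome 1, 161706972 to 161714352), an intracellular Fc receptor-like protein best known from B cells, had 63.5, 70.3 and 75.5 CPM with GSK-LSD1, against 0.136, 0.362 and 0.587 CPM with DMSO (log2 fold change 7.54, SE 0.24, edgeR adjusted p = 1.25e-14). VCAN (ENSG00000038427, chromosome 5, 83471465 to 83582303), the matrix proteoglycan versican made by monocytes, had 578, 603 and 613 CPM with GSK-LSD1, against 10.1, 9.87 and 8.94 CPM with DMSO (log2 fold change 5.95, SE 0.29, edgeR adjusted p = 1.94e-12). In the DMSO libraries FCRLA was close to silent and VCAN was a modest transcript, and in the GSK-LSD1 libraries both were plainly expressed. KCTD12, an auxiliary subunit of GABA-B receptors, had 189, 201 and 204 CPM with GSK-LSD1, against 10.4, 11 and 10.3 CPM with DMSO (log2 fold change 4.22, SE 0.08, edgeR adjusted p = 1.31e-18). RBM47, an RNA-binding protein, had 57.2, 59.8 and 61.1 CPM with GSK-LSD1, against 3.14, 2.5 and 2.57 CPM with DMSO (log2 fold change 4.45, SE 0.12, edgeR adjusted p = 8.71e-16). The fold of the means was 18.7 for KCTD12 and 21.7 for RBM47, and the groups were far apart beside the spread within each.

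The growth factor gene IGF1 had 126, 128 and 132 CPM with GSK-LSD1, against 4.39, 5.87 and 5.01 CPM with DMSO (log2 fold change 4.65, SE 0.16, edgeR adjusted p = 2.77e-14), so a gene near 5 CPM became one above 100 CPM. RTN4RL1, a relative of the Nogo receptor, had 10.8, 11.3 and 11.5 CPM with GSK-LSD1, against 0.491, 0.313 and 0.271 CPM with DMSO (log2 fold change 4.99, SE 0.25, edgeR adjusted p = 3.15e-12). SYT2, a calcium sensor of vesicle release, had 47.7, 48.8 and 47.8 CPM with GSK-LSD1, against 2.56, 3.35 and 3.63 CPM with DMSO (log2 fold change 3.91, SE 0.23, edgeR adjusted p = 3.06e-11). Neither of these neuronal genes overlapped between the groups, as the rule that picked them required. The ion carriers KCNK13, a potassium channel, and SLC8A1, the sodium-calcium exchanger, rose to 17 and 22.6 CPM, against 1.16 and 2.17 CPM with DMSO (log2 fold changes 3.88 and 3.39). CMKLR1, the chemerin receptor of monocytes and dendritic cells, rose to 8.49 CPM, against 0.677 CPM with DMSO (log2 fold change 3.62). WFS1, a membrane protein of the endoplasmic reticulum, averaged 8.86 ± 0.503 CPM with GSK-LSD1 and 0.57 ± 0.041 CPM with DMSO (log2 fold change 3.96). TICAM2, an adaptor of Toll-like receptor 4, and BGLAP, which encodes osteocalcin, had log2 fold changes of 4.11 and 3.39. Both overlap readthrough gene models, so the split of their reads is uncertain. All 15 genes kept their call in every alternative setting in which they were tested.

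**Figure D2:**
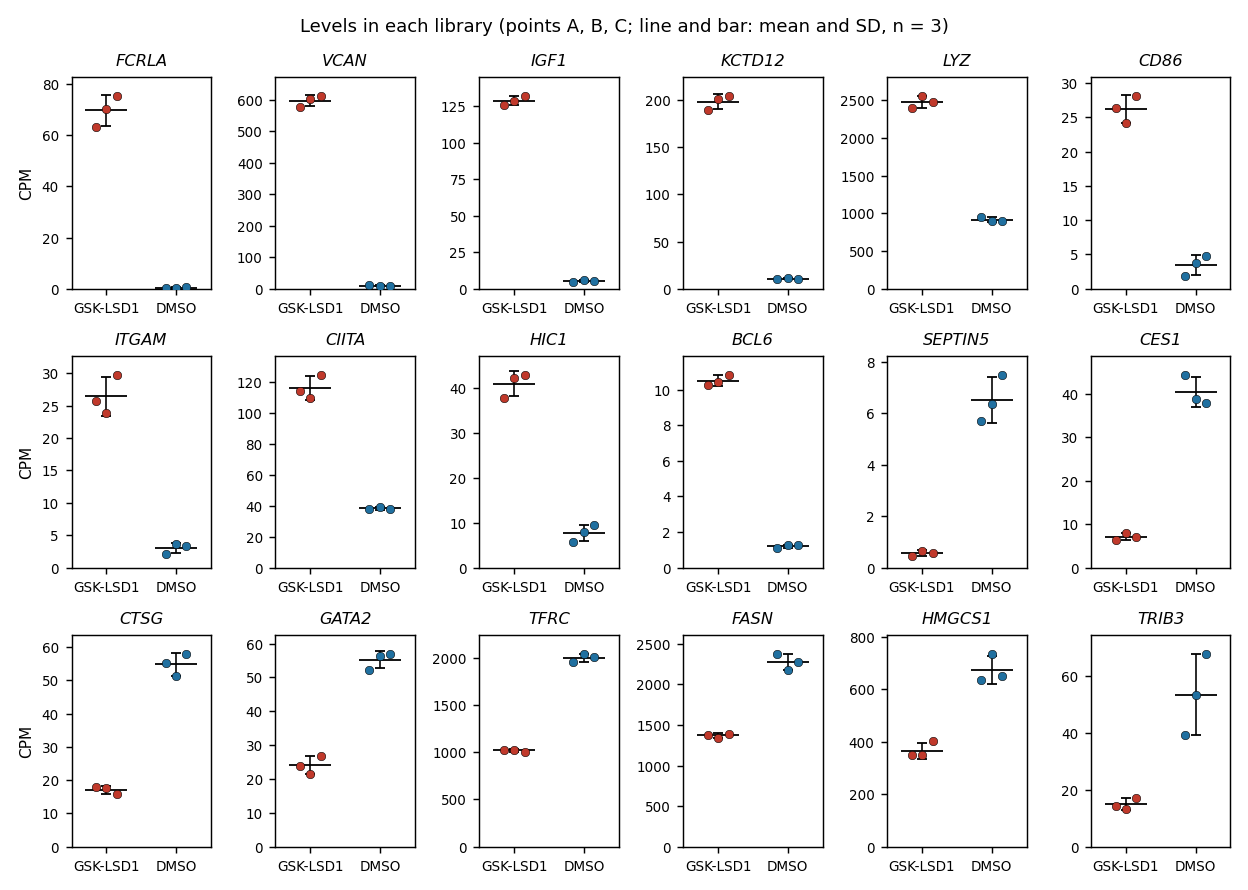
Level in CPM (vertical axes, linear from 0) of 18 genes named in the text, with 1 point per library, the GSK-LSD1 libraries in red left of the DMSO libraries in blue, a line at the mean and a bar for the SD (n = 3). The groups do not overlap in any of the 18 panels, which the rule for the largest changes required of some of them. FCRLA averages 69.7 CPM with GSK-LSD1, against 0.362 CPM with DMSO, and the 3 DMSO points of TRIB3 are widely spread.

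The promoters of the 2 genes of largest rise among the 15 above follow, from RefSeq on GRCh38.p14. FCRLA lies at chr1:161706979-161707278, plus strand, and VCAN at chr5:83471494-83471793, plus strand. In FCRLA capitals mark TGATGNAA, the composite C/EBP-ATF site, and the reverse strand of GAGGAAGT, the site of the myeloid factor PU.1.
FCRLA: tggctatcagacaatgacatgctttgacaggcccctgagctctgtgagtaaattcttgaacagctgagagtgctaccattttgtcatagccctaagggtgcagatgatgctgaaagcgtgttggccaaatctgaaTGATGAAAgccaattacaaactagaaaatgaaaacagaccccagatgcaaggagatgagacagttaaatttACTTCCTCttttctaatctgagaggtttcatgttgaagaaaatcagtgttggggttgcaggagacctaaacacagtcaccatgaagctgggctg
VCAN: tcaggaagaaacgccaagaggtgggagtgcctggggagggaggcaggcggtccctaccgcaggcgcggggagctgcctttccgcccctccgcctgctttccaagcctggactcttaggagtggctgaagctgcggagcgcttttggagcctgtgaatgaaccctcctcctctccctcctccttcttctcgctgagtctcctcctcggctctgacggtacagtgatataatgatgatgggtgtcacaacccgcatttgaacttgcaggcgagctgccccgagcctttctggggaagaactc
VCAN held none of the motifs searched. The PU.1 letters stood in 18 of 331 promoters (5.44%) of genes that rose at least 2-fold, in 3 of 149 (2.01%) of those that fell at least 2-fold and in 2.61% of the promoters of tested genes. For TTGCNNAA, the palindromic C/EBP site, the shares were 9.97%, 12.1% and 7.46%.

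Some genes that were almost silent with DMSO rose under the inhibitor. Those described are from the 8 risen genes with a symbol of highest level with GSK-LSD1 among those with a DMSO mean below 0.5 CPM, of which FCRLA and RTN4RL1 were given above. ZNF366, a zinc finger factor of dendritic cells, had 3.9, 5.57 and 4.73 CPM with GSK-LSD1, against 0.327, 0.379 and 0.226 CPM with DMSO (log2 fold change 3.90, SE 0.20, edgeR adjusted p = 3.3e-12). SOX2, a factor of pluripotent and neural stem cells, had 3.95, 3.78 and 3.55 CPM with GSK-LSD1, against 0.0818, 0.0659 and 0.0451 CPM with DMSO (log2 fold change 5.82, SE 0.55, edgeR adjusted p = 3.75e-08). SOX2 lies inside the noncoding gene SOX2-OT, and unstranded reads of overlapping genes cannot be told apart. SEPTIN10, a septin, averaged 4.09 ± 0.363 CPM with GSK-LSD1 and 0.225 ± 0.0539 CPM with DMSO, GCNT2, a glycan-branching enzyme, averaged 4.95 ± 0.289 CPM with GSK-LSD1 and 0.429 ± 0.0983 CPM with DMSO, and ACOX2, a peroxisomal oxidase, averaged 3.67 ± 0.291 CPM with GSK-LSD1 and 0.431 ± 0.00445 CPM with DMSO. None of the 8 overlapped between the groups.

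For 9 called genes with a symbol all DMSO libraries were at 0, and a fold against 3 counts over the DMSO group (0.0212 CPM) is then a lower bound. CD163, the haemoglobin scavenger receptor of macrophages, summed to 146 counts with GSK-LSD1, against 0 with DMSO, and was at least 55.6-fold higher. S100A12, a calcium-binding alarmin, summed to 78 counts, against 0, and was at least 29.8-fold higher. CD300E, a monocyte surface receptor, summed to 30 counts, against 0, and was at least 11.4-fold higher. GIMAP4, a GTPase of immune cells chosen after its values were seen, summed to 143 counts, against 0, and was at least 54-fold higher. These genes remained at low levels with GSK-LSD1, between 0.242 and 1.18 CPM for the 4 named. Such floors cover counting error only.

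The largest falls were fewer and smaller. IGLL1, part of the surrogate light chain of pre-B cells, had 0.842, 0.596 and 0.72 CPM with GSK-LSD1, against 5.18, 5.9 and 6 CPM with DMSO (log2 fold change -2.98, SE 0.18, edgeR adjusted p = 6.64e-11). CES1 (ENSG00000198848, chromosome 16, 55802851 to 55833337), a carboxylesterase of monocytes and liver, had 6.4, 7.91 and 7.12 CPM with GSK-LSD1, against 44.3, 38.8 and 37.8 CPM with DMSO (log2 fold change -2.50, SE 0.09, edgeR adjusted p = 3.04e-14). CX3CR1, the fractalkine receptor of nonclassical monocytes, had 1.8, 1.26 and 1.93 CPM with GSK-LSD1, against 7.63, 9.48 and 8.26 CPM with DMSO (log2 fold change -2.35, SE 0.15, edgeR adjusted p = 1.16e-10). Every GSK-LSD1 library was below every DMSO library for all of these, as the rule that picked them required. NIBAN1 had 7.63, 7.08 and 7.87 CPM with GSK-LSD1, against 28, 29.9 and 37 CPM with DMSO (log2 fold change -2.07, SE 0.13, edgeR adjusted p = 1.34e-10). IL7R, the interleukin 7 receptor chain of lymphoid progenitors, had 4.91, 4.84 and 4.37 CPM with GSK-LSD1, against 18.1, 16.6 and 15 CPM with DMSO (log2 fold change -1.81, SE 0.11, edgeR adjusted p = 4.95e-11). TRIB3, a pseudokinase induced by ATF4, had 14.2, 13.4 and 17.3 CPM with GSK-LSD1, against 39.4, 53.3 and 67.8 CPM with DMSO (log2 fold change -1.84, SE 0.20, edgeR adjusted p = 2.55e-07). The DMSO libraries of TRIB3 were widely spread but, as the rule required, did not reach down to the GSK-LSD1 libraries.

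The transporters SLC13A3, for dicarboxylates, and SLC22A16, for carnitine, fell to 3.95 and 2.27 CPM, against 17.1 and 7.5 CPM with DMSO (log2 fold changes -2.11 and -1.72). PTGER2, a prostaglandin E2 receptor, fell to 2.46 CPM, against 9.98 CPM with DMSO (log2 fold change -2.02). B3GNT5, a glycolipid-building enzyme, fell to 9.21 CPM, against 32.4 CPM with DMSO (log2 fold change -1.81). RAB7B, a GTPase of endosomal transport, the imprinted gene PEG3 and the netrin receptor UNC5B had log2 fold changes of -1.75, -2.00 and -1.95. SEPTIN5 had the largest fall of the 15 (log2 fold change -3.50, 0.571 CPM with GSK-LSD1 against 6.52 CPM with DMSO), but shares reads with a readthrough model and is uncertain. The pseudogene RPL3P4 (-1.89) is uncertain for its likeness to other ribosomal protein genes, and its adjusted p was 0.0599 without GSK-LSD1 replicate A. The other 14 kept their call in every alternative setting in which they were tested.

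In absolute amount the response was carried mostly by other genes, though VCAN, given above, was among the largest gains at 588.2 CPM. LYZ, the lysozyme of monocytes and granulocytes, gained the most CPM, with 2403, 2557 and 2471 CPM with GSK-LSD1, against 954, 901 and 894 CPM with DMSO (log2 fold change 1.43, SE 0.06, edgeR adjusted p = 4.31e-13). The cytoskeletal genes TPM4, a tropomyosin, VIM, vimentin, and ACTG1, gamma-actin, rose as well: TPM4 averaged 972 ± 12.8 CPM with GSK-LSD1 and 424 ± 13.5 CPM with DMSO, VIM averaged 1278 ± 37.4 CPM with GSK-LSD1 and 807 ± 76.8 CPM with DMSO and ACTG1 averaged 4434 ± 191 CPM with GSK-LSD1 and 3348 ± 241 CPM with DMSO. HOOK3, which couples dynein to its cargo, averaged 1218 ± 26.6 CPM with GSK-LSD1 and 664 ± 15.2 CPM with DMSO, and the scaffold AHNAK averaged 2788 ± 74 CPM with GSK-LSD1 and 2031 ± 120.5 CPM with DMSO. For all of these the GSK-LSD1 libraries lay above the DMSO libraries. The translation factor EEF2 also counted among the 8 largest gains (5671 ± 165 CPM with GSK-LSD1 and 5223 ± 85.2 CPM with DMSO, log2 fold change 0.12, SE 0.04, edgeR adjusted p = 0.0457), but it missed the threshold under 13 of 16 alternative settings.

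The largest losses of CPM were those of TFRC, FASN, SCD, GLUL and SRGN. TFRC, the transferrin receptor, had 1024, 1028 and 1005 CPM with GSK-LSD1, against 1954, 2037 and 2002 CPM with DMSO (log2 fold change -0.97, SE 0.05, edgeR adjusted p = 1.47e-11). FASN, fatty acid synthase, had 1379, 1341 and 1392 CPM with GSK-LSD1, against 2371, 2179 and 2274 CPM with DMSO (log2 fold change -0.73, SE 0.05, edgeR adjusted p = 7.67e-10). SCD, the stearoyl-CoA desaturase, had 1077, 1073 and 1148 CPM with GSK-LSD1, against 1814, 2020 and 1856 CPM with DMSO (log2 fold change -0.79, SE 0.07, edgeR adjusted p = 1.36e-08). None of these overlapped between the groups. GLUL, glutamine synthetase, averaged 605 ± 27.4 CPM with GSK-LSD1 and 1181 ± 115 CPM with DMSO (log2 fold change -0.97). SRGN, the granule proteoglycan serglycin, averaged 1152 ± 37.9 CPM with GSK-LSD1 and 1637 ± 68.6 CPM with DMSO (-0.51 on the log2 scale). ACLY, which makes cytosolic acetyl-CoA, averaged 714 ± 7.61 CPM with GSK-LSD1 and 1038 ± 39.1 CPM with DMSO (-0.54 on the log2 scale).

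Few of the tested genes were annotated as long noncoding, and 2 of them were called at the level set for naming. H3-7, a histone locus annotated as a processed transcript and near-identical to other histone H3 genes, had 56.2, 55.3 and 53.7 CPM with GSK-LSD1, against 27.9, 44.2 and 43.1 CPM with DMSO (log2 fold change 0.52, SE 0.12, edgeR adjusted p = 0.00183). LINC01667 had 3.01, 2.64 and 2.57 CPM with GSK-LSD1, against 3.76, 3.31 and 3.63 CPM with DMSO (log2 fold change -0.38, SE 0.14, edgeR adjusted p = 0.0387), and its adjusted p was 0.112 without DMSO replicate A, 0.0676 without DMSO replicate C, 0.0821 without GSK-LSD1 replicate B and 0.126 without GSK-LSD1 replicate C. Both were separate between the groups, by small amounts.

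Transcription factors of the myeloid lineage moved in both directions. In that list 13 rose and 8 fell of 36 tested members, at a median log2 fold change of 0.07, and the number that fell was 5 without DMSO replicate C. BCL6, a repressor of germinal centre B cells and of inflammatory genes in macrophages, had 10.2, 10.4 and 10.8 CPM with GSK-LSD1, against 1.09, 1.25 and 1.26 CPM with DMSO (log2 fold change 3.12, SE 0.13, edgeR adjusted p = 1.38e-13). MITF, which drives lysosomal and osteoclast genes, had 2.14, 2.45 and 2.16 CPM with GSK-LSD1, against 0.927, 0.873 and 1.08 CPM with DMSO (log2 fold change 1.23, SE 0.18, edgeR adjusted p = 1.21e-05). TFEB, a regulator of lysosome genes, had 13.1, 13.2 and 14.7 CPM with GSK-LSD1, against 8.37, 8.49 and 8.71 CPM with DMSO (log2 fold change 0.68, SE 0.08, edgeR adjusted p = 1.03e-06). None of the 3 overlapped between the groups. ID1, an inhibitor of basic helix-loop-helix factors, averaged 5.4 ± 0.446 CPM with GSK-LSD1 and 2.61 ± 0.168 CPM with DMSO, RUNX3 averaged 152 ± 4.87 CPM with GSK-LSD1 and 101 ± 7.46 CPM with DMSO, IRF1 averaged 73.3 ± 0.336 CPM with GSK-LSD1 and 57.6 ± 3.77 CPM with DMSO and STAT6 averaged 396 ± 6.5 CPM with GSK-LSD1 and 309 ± 4.08 CPM with DMSO, all higher with GSK-LSD1.

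CEBPA, the factor that starts the granulocyte and monocyte programme, fell, with 176, 184 and 195 CPM with GSK-LSD1, against 273, 275 and 304 CPM with DMSO (log2 fold change -0.62, SE 0.07, edgeR adjusted p = 2.5e-07). CEBPD had 34, 32.8 and 36.5 CPM with GSK-LSD1, against 40.5, 47.1 and 55.5 CPM with DMSO (log2 fold change -0.47, SE 0.10, edgeR adjusted p = 0.000923), and the vitamin D receptor VDR had 23.4, 23.7 and 24.5 CPM with GSK-LSD1, against 38.7, 39.1 and 38.4 CPM with DMSO (log2 fold change -0.70, SE 0.04, edgeR adjusted p = 1.13e-10). KLF2, a quiescence factor, averaged 6.68 ± 0.567 CPM with GSK-LSD1 and 13.2 ± 2.7 CPM with DMSO and fell (log2 fold change -0.98, SE 0.24, edgeR adjusted p = 0.00289), as did EGR1 (48.6 ± 0.698 CPM with GSK-LSD1 and 79.6 ± 13.4 CPM with DMSO). The pan-myeloid factor SPI1, which encodes PU.1, averaged 69 ± 0.969 CPM with GSK-LSD1 and 76.5 ± 5.41 CPM with DMSO (log2 fold change -0.15, SE 0.07, edgeR adjusted p = 0.0867), and IRF8 averaged 475 ± 9.99 CPM with GSK-LSD1 and 457 ± 10.8 CPM with DMSO (log2 fold change 0.06, SE 0.04, edgeR adjusted p = 0.338). RUNX1 averaged 724 ± 23.4 CPM with GSK-LSD1 and 726 ± 39.5 CPM with DMSO (log2 fold change -0.00, SE 0.04, edgeR adjusted p = 0.95). These 3 did not pass the test. CEBPB was lower with GSK-LSD1 (-0.37), with an adjusted p of 0.084 without DMSO replicate C and 0.0598 without GSK-LSD1 replicate A.

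Monocyte and macrophage genes split between rises and falls. In that list 14 rose and 6 fell of 33 tested members, at a median log2 fold change of 0.29, 10 of them up and 4 down at least 2-fold, and their summed level was 3745 to 3915 CPM with GSK-LSD1, against 1560 to 1589 CPM with DMSO. Most of that sum was LYZ and VCAN. S100A9, a calprotectin subunit, had 2, 2.02 and 1.75 CPM with GSK-LSD1, against 0.354, 0.0494 and 0.226 CPM with DMSO (log2 fold change 3.27, SE 0.43, edgeR adjusted p = 4.43e-06). CSF1R, the M-CSF receptor, had 124, 124 and 137 CPM with GSK-LSD1, against 86.2, 100.0 and 103 CPM with DMSO (log2 fold change 0.42, SE 0.06, edgeR adjusted p = 2.76e-05). The groups were separate for both. TREM2, a lipid-sensing receptor of tissue macrophages, had 0.217, 0.412 and 0.334 CPM with GSK-LSD1, against 2.26, 2.41 and 1.76 CPM with DMSO (log2 fold change -2.73, SE 0.27, edgeR adjusted p = 6.78e-08). CD36, a scavenger receptor for oxidised lipids, had 16.5, 16.2 and 15.5 CPM with GSK-LSD1, against 43.1, 51.1 and 47.1 CPM with DMSO (log2 fold change -1.55, SE 0.07, edgeR adjusted p = 7.05e-13). TREM2 and CD36 were lower in every GSK-LSD1 library. In these bulk samples, more cells of a maturing type and more RNA per cell cannot be told apart.

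Most tested dendritic cell genes rose, some of which were near 0 with DMSO and could hardly have shown a fall. In that list 10 rose and 1 fell of 16 tested members, at a median log2 fold change of 0.79, and 9 of its 25 members did not pass the filter on low counts. CD1A, which presents lipid antigens, had 3.35, 3.42 and 2.39 CPM with GSK-LSD1, against 0.0545, 0.033 and 0.0226 CPM with DMSO (log2 fold change 6.31, SE 0.64, edgeR adjusted p = 1.08e-07), and its neighbour CD1C had 1.3, 1.17 and 1.47 CPM with GSK-LSD1, against 0.0545, 0 and 0.0903 CPM with DMSO (log2 fold change 4.81, SE 0.50, edgeR adjusted p = 1.47e-07). CCR7, the receptor that takes mature dendritic cells to lymph nodes, had 2.91, 2.48 and 2.26 CPM with GSK-LSD1, against 0.327, 0.115 and 0.18 CPM with DMSO (log2 fold change 3.66, SE 0.31, edgeR adjusted p = 7.61e-09). All were near 0 with DMSO. CD209, the lectin DC-SIGN, had 15.3, 16.7 and 18.9 CPM with GSK-LSD1, against 4.28, 4.22 and 4.54 CPM with DMSO (log2 fold change 1.97, SE 0.12, edgeR adjusted p = 4.95e-11). CD86, the costimulatory ligand, had 26.3, 24.1 and 28.1 CPM with GSK-LSD1, against 1.88, 3.79 and 4.78 CPM with DMSO (log2 fold change 2.89, SE 0.20, edgeR adjusted p = 4.63e-10). The activation marker CD83 went the other way, with 5.39, 5.48 and 4.78 CPM with GSK-LSD1, against 9.05, 8.31 and 9.05 CPM with DMSO (log2 fold change -0.75, SE 0.10, edgeR adjusted p = 4.4e-06). Markers of the plasmacytoid and cross-presenting subsets, CLEC4C and CLEC9A, had at most 2 counts in any of these libraries.

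Genes of MHC class II presentation rose almost throughout. In that list 13 rose and 0 fell of 15 tested members, at a median log2 fold change of 1.60, while 3 rose and 2 fell of the 15 tested genes of class I and peptide loading, with a median of 0.13. CIITA, the class II transactivator, had 114, 109.9 and 125 CPM with GSK-LSD1, against 38, 39.5 and 37.8 CPM with DMSO (log2 fold change 1.60, SE 0.08, edgeR adjusted p = 2.37e-12). CD74, the invariant chain, had 309, 300 and 309.6 CPM with GSK-LSD1, against 110.2, 114 and 114 CPM with DMSO (log2 fold change 1.44, SE 0.09, edgeR adjusted p = 1.11e-10). IFI30, a thiol reductase of antigen processing, had 52.7, 51.7 and 53 CPM with GSK-LSD1, against 9.44, 12.5 and 12.7 CPM with DMSO (log2 fold change 2.18, SE 0.09, edgeR adjusted p = 3.82e-13). The libraries of these 3 genes, which lie outside the MHC region, separated fully by treatment. HLA-DRA had 52.2, 54.4 and 56 CPM with GSK-LSD1, against 11.2, 11.8 and 10.9 CPM with DMSO (log2 fold change 2.26, SE 0.10, edgeR adjusted p = 6.63e-13), and HLA-DRB1 had 26, 24.2 and 25.1 CPM with GSK-LSD1, against 6.11, 5.67 and 7.99 CPM with DMSO (log2 fold change 1.93, SE 0.12, edgeR adjusted p = 9.48e-11). Values in the MHC region of chromosome 6 are uncertain: the human reference holds near-identical copies of it, and HLA-C, HLA-DOA and EHMT2 were listed at 0 in all 6 libraries. In class I, B2M, the shared light chain, had 312, 315 and 314 CPM with GSK-LSD1, against 262, 271 and 274 CPM with DMSO (log2 fold change 0.22, SE 0.03, edgeR adjusted p = 3.14e-05), ERAP2, a peptide-trimming aminopeptidase, had 25.9, 25.6 and 24.8 CPM with GSK-LSD1, against 16.3, 15.7 and 14.7 CPM with DMSO (log2 fold change 0.71, SE 0.06, edgeR adjusted p = 1.62e-08), and the chaperone CALR averaged 937 ± 35 CPM with GSK-LSD1 and 1093 ± 59 CPM with DMSO (log2 fold change -0.22, SE 0.06, edgeR adjusted p = 0.00709). The class I counts were 5 and 1 with only the 16 libraries of ordinary RRP9 level.

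Most neutrophil granule genes fell. In that list 2 rose and 11 fell of 15 tested members, at a median log2 fold change of -0.64, and the summed level was 1576 to 1632 CPM with GSK-LSD1, against 2410 to 2551 CPM with DMSO. CTSG, the serine protease cathepsin G, had 18.1, 17.6 and 15.8 CPM with GSK-LSD1, against 55.2, 51.2 and 57.9 CPM with DMSO (log2 fold change -1.68, SE 0.09, edgeR adjusted p = 9.74e-12). PRTN3, proteinase 3, had 40.1, 38.3 and 28.7 CPM with GSK-LSD1, against 106, 105 and 100.1 CPM with DMSO (log2 fold change -1.54, SE 0.19, edgeR adjusted p = 2.05e-06). ELANE, neutrophil elastase, had 42, 34.9 and 42.4 CPM with GSK-LSD1, against 128, 96.7 and 81.5 CPM with DMSO (log2 fold change -1.36, SE 0.25, edgeR adjusted p = 0.000204). The groups were separate for all 3. RNASE2 and RNASE3, ribonucleases of eosinophil granules and close paralogs, averaged 8.83 CPM with GSK-LSD1 against 25.9 CPM with DMSO and 2.66 CPM with GSK-LSD1 against 7.55 CPM with DMSO and fell. MPO, myeloperoxidase, averaged 7.35 ± 0.232 CPM with GSK-LSD1 and 9.78 ± 0.384 CPM with DMSO (log2 fold change -0.41, SE 0.07, edgeR adjusted p = 4.81e-05). The 2 members that rose, BPI, a bactericidal protein of primary granules, and MMP9, a gelatinase of later granules, stayed below 2 CPM, with means of 1.91 CPM with GSK-LSD1 against 0.322 CPM with DMSO and 1.63 CPM with GSK-LSD1 against 0.339 CPM with DMSO. The later granule genes LTF, LCN2, CAMP and MMP8 did not pass the filter, with at most 6 counts in a library.

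Parts of the phagocyte NADPH oxidase moved unequally. Of that list, 4 rose and 2 fell of 9 tested members, at a median log2 fold change of 0.14, and the number that rose was 2 without DMSO replicate B. CYBB, the catalytic subunit, had 17.9, 17.3 and 19 CPM with GSK-LSD1, against 3.35, 3.71 and 3.75 CPM with DMSO (log2 fold change 2.32, SE 0.09, edgeR adjusted p = 4.34e-14), and NCF1, its organising subunit, had 27.8, 25.8 and 31.5 CPM with GSK-LSD1, against 5.24, 11.1 and 11.1 CPM with DMSO (log2 fold change 1.62, SE 0.22, edgeR adjusted p = 5.08e-06). NCF1 has near-identical pseudogenes, so its counts are uncertain. Both were higher in every GSK-LSD1 library.

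Most Toll-like receptor genes and their adaptors rose, while TLR2 and TLR4 were among those that fell. In that list 16 rose and 4 fell of 25 tested members, at a median log2 fold change of 0.37. LY96, the partner MD-2 of TLR4, had 1.71, 2.04 and 2.24 CPM with GSK-LSD1, against 0.0545, 0.0989 and 0.113 CPM with DMSO (log2 fold change 4.41, SE 0.39, edgeR adjusted p = 1.62e-08). TLR1 had 30.2, 29.7 and 29.5 CPM with GSK-LSD1, against 11.8, 14 and 13.3 CPM with DMSO (log2 fold change 1.19, SE 0.07, edgeR adjusted p = 1.87e-11), and the adaptor MYD88 had 63.1, 66 and 65 CPM with GSK-LSD1, against 36.7, 37.8 and 35.8 CPM with DMSO (log2 fold change 0.81, SE 0.05, edgeR adjusted p = 1.47e-10). TLR2 had 95.2, 96.2 and 104 CPM with GSK-LSD1, against 187, 188 and 167 CPM with DMSO (log2 fold change -0.88, SE 0.06, edgeR adjusted p = 2.95e-10), and TLR4 had 12.3, 13.8 and 15.3 CPM with GSK-LSD1, against 24.6, 21.8 and 22.8 CPM with DMSO (log2 fold change -0.74, SE 0.08, edgeR adjusted p = 2.93e-07). The rises and the falls both left the groups without overlap. Among Fc receptors and their relatives, 9 rose and 1 fell of 12 tested members, at a median log2 fold change of 0.77. FCGR2B, the inhibitory IgG receptor, had 51.9, 48.8 and 60.6 CPM with GSK-LSD1, against 3.87, 5.98 and 8.06 CPM with DMSO (log2 fold change 3.16, SE 0.21, edgeR adjusted p = 2.69e-10), though reads of its near-identical neighbour FCGR2C cannot be kept apart from it with certainty. PIGR, which carries IgA and IgM across epithelia, had 28.5, 29.8 and 33.4 CPM with GSK-LSD1, against 3.52, 4 and 3.84 CPM with DMSO (log2 fold change 3.01, SE 0.12, edgeR adjusted p = 5.79e-14), and FCMR, the IgM receptor, had 23.6, 21.3 and 23.6 CPM with GSK-LSD1, against 1.77, 3.51 and 3.75 CPM with DMSO (log2 fold change 2.90, SE 0.20, edgeR adjusted p = 2.68e-10). FCGRT, the neonatal Fc receptor, averaged 49.1 ± 1.48 CPM with GSK-LSD1 and 27.6 ± 3.6 CPM with DMSO, and FCGR1A, the high-affinity IgG receptor and the single member that fell, averaged 43.4 ± 1.46 CPM with GSK-LSD1 and 68.3 ± 5.38 CPM with DMSO.

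Most adhesion receptor genes rose. In that list 15 rose and 3 fell of 24 tested members, at a median log2 fold change of 0.46. ITGAM, the CD11b chain of the complement receptor, had 25.7, 23.8 and 29.7 CPM with GSK-LSD1, against 2.13, 3.66 and 3.32 CPM with DMSO (log2 fold change 3.10, SE 0.17, edgeR adjusted p = 1.16e-11). CD84, a homophilic receptor of leukocytes, had 56.2, 54.5 and 50.1 CPM with GSK-LSD1, against 16.9, 16.1 and 14 CPM with DMSO (log2 fold change 1.78, SE 0.09, edgeR adjusted p = 1.84e-12). ITGB7, the gut-homing integrin chain, had 90.0, 91.8 and 104 CPM with GSK-LSD1, against 34.8, 35.5 and 39.8 CPM with DMSO (log2 fold change 1.38, SE 0.09, edgeR adjusted p = 1.14e-10). CD44, the hyaluronan receptor, had 958, 971 and 1005 CPM with GSK-LSD1, against 606, 709 and 633 CPM with DMSO (log2 fold change 0.59, SE 0.06, edgeR adjusted p = 1.69e-07). The groups did not overlap in any of the 4. Of chemokines and their receptors, 9 rose and 2 fell of 20 tested members, at a median log2 fold change of 0.50, and the number that fell was 1 without DMSO replicate B or GSK-LSD1 replicate A. CCL2, which draws monocytes, had 4.09, 4.26 and 4.94 CPM with GSK-LSD1, against 0.436, 0.742 and 0.564 CPM with DMSO (log2 fold change 2.90, SE 0.25, edgeR adjusted p = 1.36e-08). CXCR4, the marrow-homing receptor, had 127, 125 and 126 CPM with GSK-LSD1, against 78.9, 83.8 and 76 CPM with DMSO (log2 fold change 0.66, SE 0.06, edgeR adjusted p = 6.42e-08).

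Of complement genes, 2 rose and 4 fell of 14 tested members, at a median log2 fold change of 0.03, and the number that fell was 2 without DMSO replicate B or GSK-LSD1 replicate B. CFP, properdin, had 19.2, 20.3 and 23.4 CPM with GSK-LSD1, against 5.67, 8.45 and 7.13 CPM with DMSO (log2 fold change 1.55, SE 0.13, edgeR adjusted p = 9.63e-09), while CFD, the protease factor D, had 97, 95.3 and 104 CPM with GSK-LSD1, against 192, 194 and 248 CPM with DMSO (log2 fold change -1.09, SE 0.10, edgeR adjusted p = 3.63e-08) and the anaphylatoxin receptor C3AR1 averaged 1.51 ± 0.242 CPM with GSK-LSD1 and 4.94 ± 0.888 CPM with DMSO. Among cytokines and growth factor receptors, 11 rose and 13 fell of 40 tested members, at a median log2 fold change of 0.09. TNFSF13B, the B cell factor BAFF, had 19.2, 18.7 and 17.8 CPM with GSK-LSD1, against 41.3, 39.2 and 35.6 CPM with DMSO (log2 fold change -1.06, SE 0.08, edgeR adjusted p = 2.09e-09). IL10 rose slightly (3.01 ± 0.19 CPM with GSK-LSD1 and 1.85 ± 0.0837 CPM with DMSO, log2 fold change 0.70, SE 0.18, edgeR adjusted p = 0.00528), OSM, oncostatin M, fell (10.9 ± 0.468 CPM with GSK-LSD1 and 17.7 ± 2 CPM with DMSO), and so did CSF3R, the G-CSF receptor (37.2 ± 2.5 CPM with GSK-LSD1 and 59.6 ± 0.94 CPM with DMSO). TNF did not pass the filter: it had 0 counts with DMSO and up to 1424 in a single GSK-LSD1 library, and it lies in the MHC region, where counts are uncertain.

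Lysosomal genes rose in part. In that list 13 rose and 4 fell of 32 tested members, at a median log2 fold change of 0.09. SGSH, which breaks down heparan sulfate, had 29.1, 29.4 and 31.9 CPM with GSK-LSD1, against 4.72, 4.76 and 5.05 CPM with DMSO (log2 fold change 2.63, SE 0.09, edgeR adjusted p = 2.19e-14). CTSB, cathepsin B, had 217, 227 and 243 CPM with GSK-LSD1, against 96, 104 and 115 CPM with DMSO (log2 fold change 1.12, SE 0.07, edgeR adjusted p = 7.96e-11). CTSS, the cathepsin that trims the invariant chain, had 115, 121 and 124 CPM with GSK-LSD1, against 74.2, 72.4 and 76.6 CPM with DMSO (log2 fold change 0.69, SE 0.04, edgeR adjusted p = 5.21e-11). CTSZ, cathepsin Z, averaged 115 ± 2.2 CPM with GSK-LSD1 and 64.2 ± 2.47 CPM with DMSO and rose. The groups did not overlap for SGSH, CTSB or CTSS.

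**Figure D3:**
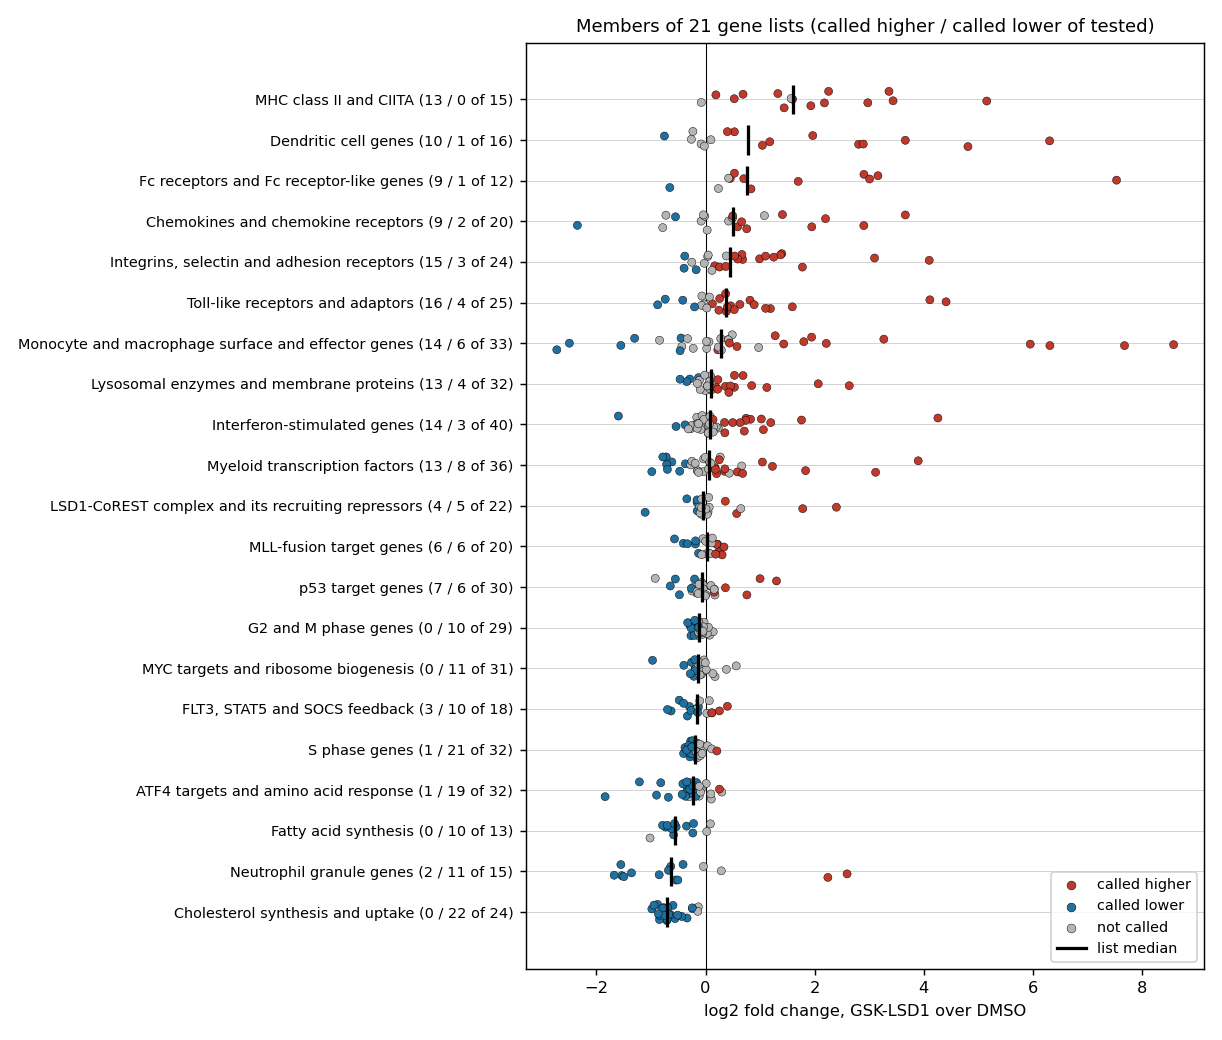
Log2 fold change of GSK-LSD1 over DMSO (horizontal axis) for each tested member of 21 gene lists named on the vertical axis with their called counts, with members called higher in red, called lower in blue, the others grey and a black bar at the median of the list. The median of all tested genes is 0.03. The lists of MHC class II and dendritic cell genes lie to its right, and those of cholesterol synthesis, neutrophil granules and fatty acid synthesis to its left.

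Sterol synthesis fell as a block. In that list 0 rose and 22 fell of 24 tested members, at a median log2 fold change of -0.70 and a range of -0.98 to -0.13. Its summed level was 4536 to 4944 CPM with GSK-LSD1, against 6551 to 7325 CPM with DMSO. HMGCS1, which makes HMG-CoA, had 349, 348 and 402 CPM with GSK-LSD1, against 635, 734 and 652 CPM with DMSO (log2 fold change -0.88, SE 0.08, edgeR adjusted p = 4.04e-08). MVD, the mevalonate diphosphate decarboxylase, had 63.7, 59.7 and 69.5 CPM with GSK-LSD1, against 109.7, 131 and 141 CPM with DMSO (log2 fold change -0.98, SE 0.10, edgeR adjusted p = 1.76e-07). The GSK-LSD1 libraries were below the DMSO libraries in both. SQLE, LSS and CYP51A1, which lead from squalene to cholesterol, averaged 281 CPM with GSK-LSD1 against 454 CPM with DMSO, 215 CPM with GSK-LSD1 against 386 CPM with DMSO and 299 CPM with GSK-LSD1 against 537 CPM with DMSO. SREBF2, which encodes the pathway's activator, averaged 446 ± 17.2 CPM with GSK-LSD1 and 528 ± 18.4 CPM with DMSO (log2 fold change -0.24, SE 0.04, edgeR adjusted p = 0.000142). INSIG1, the sterol sensor that holds that activator back, did not pass the test (916 ± 41.4 CPM with GSK-LSD1 and 1011 ± 97.2 CPM with DMSO, log2 fold change -0.14, SE 0.08, edgeR adjusted p = 0.17).

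The promoters of HMGCS1 at chr5:43313363-43313662, minus strand and of MVD at chr16:88663042-88663341, minus strand stand for this block, again from RefSeq on GRCh38.p14. Capitals mark AATCNNNGC on either strand.
HMGCS1: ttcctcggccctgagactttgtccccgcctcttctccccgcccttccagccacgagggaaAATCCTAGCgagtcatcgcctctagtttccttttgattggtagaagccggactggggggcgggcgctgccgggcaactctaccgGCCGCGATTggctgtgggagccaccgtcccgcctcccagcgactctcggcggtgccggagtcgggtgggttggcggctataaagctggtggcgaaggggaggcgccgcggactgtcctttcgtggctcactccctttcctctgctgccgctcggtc
MVD: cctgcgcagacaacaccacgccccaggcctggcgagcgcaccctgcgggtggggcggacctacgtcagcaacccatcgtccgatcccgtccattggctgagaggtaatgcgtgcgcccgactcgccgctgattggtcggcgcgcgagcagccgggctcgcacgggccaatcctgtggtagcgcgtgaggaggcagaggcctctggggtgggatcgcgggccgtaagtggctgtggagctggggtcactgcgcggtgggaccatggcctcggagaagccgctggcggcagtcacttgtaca
HMGCS1 held 2 matches and MVD none. Of the 18 promoters found for the list, 7 (38.9%) held this motif, against 12.1% of the promoters of tested genes. It stood in 18 of 149 promoters (12.1%) of genes that fell at least 2-fold. In the other lists searched it stood in 4 of 25 promoters (16%) for the amino acid response and 1 of 18 (5.56%) for the CoREST list. The difference between lists was not tested. The strict sterol response letters TCACNCCAC stood in 1 of the 18 sterol promoters (5.56%), against 1.13% of the promoters of tested genes and 1.15% of all promoters. A window of 300 bases can miss sites further off, and sites were not measured.

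Fatty acid synthesis shared the fall. In that list 0 rose and 10 fell of 13 tested members, at a median log2 fold change of -0.57. The desaturases FADS2 and FADS1 averaged 498 CPM with GSK-LSD1 against 769 CPM with DMSO and 406 CPM with GSK-LSD1 against 609 CPM with DMSO and ACSS2, which activates acetate, averaged 133 ± 10.8 CPM with GSK-LSD1 and 197 ± 30.2 CPM with DMSO. Genes of cholesterol export and lipid transport were mixed, and 3 rose and 6 fell of 18 tested members, at a median log2 fold change of -0.10. ABCA6, a lipid transporter of macrophages, had 23.9, 24.7 and 22.4 CPM with GSK-LSD1, against 5.37, 5.29 and 4.81 CPM with DMSO (log2 fold change 2.20, SE 0.10, edgeR adjusted p = 1.02e-12), and its neighbour ABCA9 averaged 4.14 ± 0.312 CPM with GSK-LSD1 and 1.17 ± 0.273 CPM with DMSO. ABCA1, the cholesterol exporter, had 11.2, 10.4 and 9.82 CPM with GSK-LSD1, against 18, 15.1 and 16.5 CPM with DMSO (log2 fold change -0.66, SE 0.12, edgeR adjusted p = 0.000222), and SREBF1, the fatty acid activator, had 168, 171 and 169 CPM with GSK-LSD1, against 206, 202 and 228 CPM with DMSO (log2 fold change -0.33, SE 0.05, edgeR adjusted p = 3.81e-05). ABCA6 was higher and ABCA1 and SREBF1 lower in every GSK-LSD1 library.

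Most genes of the amino acid response fell. In that list 1 rose and 19 fell of 32 tested members, at a median log2 fold change of -0.23, and the single rise was not called without DMSO replicate B, DMSO replicate C, GSK-LSD1 replicate A or GSK-LSD1 replicate B. GPT2, a mitochondrial alanine transaminase, had 45.6, 46.1 and 44.5 CPM with GSK-LSD1, against 107, 102 and 106 CPM with DMSO (log2 fold change -1.21, SE 0.07, edgeR adjusted p = 1.47e-11). ALDH1L2, of mitochondrial folate metabolism, had 49.6, 45.6 and 41.4 CPM with GSK-LSD1, against 89.4, 85.9 and 79.4 CPM with DMSO (log2 fold change -0.90, SE 0.09, edgeR adjusted p = 1.41e-07). SLC7A11, the cystine carrier, had 19.3, 17.7 and 17.9 CPM with GSK-LSD1, against 28.2, 35.1 and 33.5 CPM with DMSO (log2 fold change -0.82, SE 0.15, edgeR adjusted p = 0.000153). The groups were apart for all 3. DDIT3, the stress factor CHOP, averaged 10.1 ± 1.07 CPM with GSK-LSD1 and 16.2 ± 3.89 CPM with DMSO and AARS1, the alanyl-tRNA synthetase, averaged 239 ± 9.41 CPM with GSK-LSD1 and 322 ± 13.3 CPM with DMSO. ASNS, asparagine synthetase, did not pass the test (56.1 ± 2.81 CPM with GSK-LSD1 and 62.8 ± 2.31 CPM with DMSO, log2 fold change -0.16, SE 0.06, edgeR adjusted p = 0.0619). Of 25 promoters found for the list, 6 (24%) held the C/EBP-ATF letters, against 1.83% of the promoters of tested genes and 3.67% of all promoters. The list was made up of ATF4 targets along with amino acid genes, so that share does not bear on the response to GSK-LSD1. In the list of endoplasmic reticulum chaperones, 2 rose and 12 fell of 22 tested members, at a median log2 fold change of -0.17, and the number that fell was 7 without DMSO replicate C or without GSK-LSD1 replicate C. The sensor kinase ERN1 averaged 40.6 ± 1.16 CPM with GSK-LSD1 and 60.8 ± 3.42 CPM with DMSO and fell, the secreted factor MANF averaged 27.4 ± 0.591 CPM with GSK-LSD1 and 34.4 ± 1.52 CPM with DMSO and fell, and HERPUD1, which helps to clear misfolded proteins, averaged 98.8 ± 4.81 CPM with GSK-LSD1 and 79.5 ± 6.13 CPM with DMSO and rose.

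Most replication genes fell by small amounts. In the S phase list 1 rose and 21 fell of 32 tested members, at a median log2 fold change of -0.20, and none fell as much as 2-fold. The single rise was not called without DMSO replicate C, GSK-LSD1 replicate A or GSK-LSD1 replicate B. MCM2, a subunit of the replicative helicase, had 307, 319 and 309 CPM with GSK-LSD1, against 432, 385 and 418 CPM with DMSO (log2 fold change -0.40, SE 0.05, edgeR adjusted p = 1.84e-06). CDT1, which loads that helicase, had 119, 122 and 122 CPM with GSK-LSD1, against 151, 156 and 166 CPM with DMSO (log2 fold change -0.38, SE 0.05, edgeR adjusted p = 6.49e-06), and RRM2, of ribonucleotide reductase, had 333, 337 and 336 CPM with GSK-LSD1, against 418, 417 and 409 CPM with DMSO (log2 fold change -0.31, SE 0.05, edgeR adjusted p = 3.36e-05). GSK-LSD1 libraries were below the DMSO libraries throughout. In the G2 and M list 0 rose and 10 fell of 29 tested members, at a median log2 fold change of -0.12. The mitotic kinase TTK averaged 59.8 ± 2.2 CPM with GSK-LSD1 and 75 ± 2.71 CPM with DMSO and cyclin A2, CCNA2, averaged 144 ± 8 CPM with GSK-LSD1 and 173 ± 9.29 CPM with DMSO, both lower. The proliferation marker MKI67 averaged 389 ± 13.8 CPM with GSK-LSD1 and 424 ± 42.4 CPM with DMSO (log2 fold change -0.12, SE 0.07, edgeR adjusted p = 0.167) and did not pass the test.

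MYC had 206, 206 and 219 CPM with GSK-LSD1, against 312, 322 and 301 CPM with DMSO (log2 fold change -0.57, SE 0.07, edgeR adjusted p = 7.2e-07). Of its targets and ribosome biogenesis genes, 0 rose and 11 fell of 31 tested members, at a median log2 fold change of -0.13. TFRC, given above, is a member of that list, and WDR12, of the large ribosomal subunit's assembly, averaged 106 ± 2.84 CPM with GSK-LSD1 and 139.7 ± 6.94 CPM with DMSO (log2 fold change -0.40, SE 0.05, edgeR adjusted p = 2.27e-06). In the MYC network itself 4 rose and 4 fell of 12 tested members, at a median log2 fold change of 0.01. MYCL rose (9.61 ± 0.864 CPM with GSK-LSD1 and 5.19 ± 0.309 CPM with DMSO), the antagonist MXD4 rose (71.2 ± 1.37 CPM with GSK-LSD1 and 52.5 ± 4.03 CPM with DMSO), and the antagonist MXI1 fell (89.2 ± 6.42 CPM with GSK-LSD1 and 139 ± 17.2 CPM with DMSO). Of cell cycle inhibitors and G1 cyclins, 2 rose and 7 fell of 18 tested members, at a median log2 fold change of -0.09, with 1 rise without GSK-LSD1 replicate B. These inhibitors fell: CDKN1A, which encodes p21, had 69.5, 66.5 and 73.6 CPM with GSK-LSD1, against 89.9, 105 and 113 CPM with DMSO (log2 fold change -0.55, SE 0.08, edgeR adjusted p = 6e-06), CDKN2A averaged 50.1 ± 1.62 CPM with GSK-LSD1 and 69.5 ± 7.32 CPM with DMSO, and CDKN2B averaged 2.01 ± 0.405 CPM with GSK-LSD1 and 4.32 ± 0.684 CPM with DMSO. The retinoblastoma gene RB1 had 355, 359.9 and 372 CPM with GSK-LSD1, against 266, 265 and 228 CPM with DMSO (log2 fold change 0.52, SE 0.05, edgeR adjusted p = 7.42e-08).

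Among p53 target genes 7 rose and 6 fell of 30 tested members, at a median log2 fold change of -0.07. TIGAR, which lowers glycolytic flux, had 55.5, 57 and 49.6 CPM with GSK-LSD1, against 24.1, 21 and 20.8 CPM with DMSO (log2 fold change 1.30, SE 0.10, edgeR adjusted p = 1.39e-09), and ZMAT3, an RNA-binding tumour suppressor, had 80.1, 81.6 and 78.8 CPM with GSK-LSD1, against 50.3, 47.8 and 44.1 CPM with DMSO (log2 fold change 0.76, SE 0.07, edgeR adjusted p = 5.52e-08). MDM2, the p53 ubiquitin ligase, averaged 274 ± 3.85 CPM with GSK-LSD1 and 304 ± 12.8 CPM with DMSO (log2 fold change -0.15, SE 0.04, edgeR adjusted p = 0.0069). TIGAR and ZMAT3 were opposite in sign to CDKN1A and MDM2 of the same list. In the BCL2 family 2 rose and 6 fell of 17 tested members, at a median log2 fold change of -0.07, and the number that rose was 0 or 1 without DMSO replicates A, B or C or GSK-LSD1 replicates A or B. BCL2, the venetoclax target, had 421, 434 and 409.9 CPM with GSK-LSD1, against 583, 568 and 526 CPM with DMSO (log2 fold change -0.41, SE 0.04, edgeR adjusted p = 5.13e-08), and BBC3, which encodes PUMA, averaged 9.13 ± 0.456 CPM with GSK-LSD1 and 12.7 ± 1.74 CPM with DMSO and fell.

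Targets of the MLL fusion did not move as a group. In that list 6 rose and 6 fell of 20 tested members, at a median log2 fold change of 0.04, with 2 rises without DMSO replicate C and 3 without GSK-LSD1 replicate A. HOXA9, the homeobox gene of this leukaemia, had 53.4, 56 and 60.7 CPM with GSK-LSD1, against 53.9, 55.1 and 60.2 CPM with DMSO (log2 fold change 0.01, SE 0.05, edgeR adjusted p = 0.938). Its groups overlapped. MEF2C, a factor of leukaemic progenitors, had 503, 497 and 496 CPM with GSK-LSD1, against 419.5, 399 and 365 CPM with DMSO (log2 fold change 0.34, SE 0.04, edgeR adjusted p = 3.78e-06), and LAMP5, a surface marker of MLL leukaemia, averaged 298 ± 8.36 CPM with GSK-LSD1 and 241 ± 3.74 CPM with DMSO and rose. Of stem and progenitor regulators, 8 rose and 4 fell of 23 tested members, at a median log2 fold change of 0.03, and the number that rose was 5 without GSK-LSD1 replicate B. GATA2, a factor of haematopoietic stem and mast cells, had 23.9, 21.4 and 26.8 CPM with GSK-LSD1, against 52.2, 56.4 and 56.9 CPM with DMSO (log2 fold change -1.20, SE 0.12, edgeR adjusted p = 7.71e-08). SOX4 had 455, 472 and 474 CPM with GSK-LSD1, against 266, 272 and 278 CPM with DMSO (log2 fold change 0.78, SE 0.05, edgeR adjusted p = 4.98e-11), ADGRG1 averaged 1.06 ± 0.116 CPM with GSK-LSD1 and 0.0856 ± 0.0798 CPM with DMSO and CD38 averaged 4.24 ± 0.836 CPM with GSK-LSD1 and 2.22 ± 0.113 CPM with DMSO. SOX4 was higher and GATA2 lower in every GSK-LSD1 library, and CD34 averaged 7.3 ± 0.402 CPM with GSK-LSD1 and 6.11 ± 0.879 CPM with DMSO (log2 fold change 0.26, SE 0.19, edgeR adjusted p = 0.317).

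Among interferon-stimulated genes 14 rose and 3 fell of 40 tested members, at a median log2 fold change of 0.07, and 1 fell without DMSO replicate C. IFI16, a DNA sensor, had 30.8, 30.2 and 29.8 CPM with GSK-LSD1, against 13.1, 15.5 and 14.8 CPM with DMSO (log2 fold change 1.06, SE 0.07, edgeR adjusted p = 4.06e-10). OAS2, of the RNase L pathway, had 10.5, 12.6 and 13.5 CPM with GSK-LSD1, against 3.98, 6.18 and 7.76 CPM with DMSO (log2 fold change 1.02, SE 0.17, edgeR adjusted p = 7.33e-05), and GBP1, a guanylate-binding protein, averaged 0.458 ± 0.0464 CPM with GSK-LSD1 and 0.0201 ± 0.0176 CPM with DMSO. The classical members ISG15 and MX1 averaged 8.24 ± 0.127 CPM with GSK-LSD1 and 7.01 ± 0.672 CPM with DMSO and 0.879 ± 0.215 CPM with GSK-LSD1 and 1.06 ± 0.313 CPM with DMSO and did not pass the test. Of NF-kB factors and targets, 5 rose and 4 fell of 22 tested members, at a median log2 fold change of 0.02, and 2 fell without DMSO replicate C. NFKBIZ, an atypical inhibitor, had 22.2, 22 and 22.4 CPM with GSK-LSD1, against 6.38, 8.47 and 10.1 CPM with DMSO (log2 fold change 1.41, SE 0.15, edgeR adjusted p = 1.99e-07), BCL3 averaged 14.9 ± 0.954 CPM with GSK-LSD1 and 6.13 ± 1.22 CPM with DMSO, ICAM1 averaged 45.7 ± 4.08 CPM with GSK-LSD1 and 22.9 ± 5.44 CPM with DMSO and NFKB1 averaged 91.4 ± 1.58 CPM with GSK-LSD1 and 63.1 ± 2.99 CPM with DMSO, all higher.

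Feedback genes of kinase signalling were mixed. For MAPK feedback and immediate early genes 4 rose and 8 fell of 25 tested members, at a median log2 fold change of -0.18, and 5 fell with only the 16 libraries of ordinary RRP9 level. DUSP4, a phosphatase that switches off ERK, had 24.6, 23.2 and 25.6 CPM with GSK-LSD1, against 3.11, 3.92 and 4.2 CPM with DMSO (log2 fold change 2.70, SE 0.10, edgeR adjusted p = 6.53e-14), and ETV5, an ERK-induced ETS factor, had 98.1, 96.2 and 102 CPM with GSK-LSD1, against 64.1, 67.9 and 67.9 CPM with DMSO (log2 fold change 0.57, SE 0.04, edgeR adjusted p = 2.27e-09). DUSP5 and DUSP2, of the same phosphatase family, fell, with means of 5.88 CPM with GSK-LSD1 against 9.29 CPM with DMSO and 8.24 CPM with GSK-LSD1 against 12.3 CPM with DMSO. MV4-11 carries an internal tandem duplication of FLT3, a kinase that signals through STAT5. In the list for that pathway 3 rose and 10 fell of 18 tested members, at a median log2 fold change of -0.16. PIM1, a STAT5-induced kinase, had 199, 199 and 235 CPM with GSK-LSD1, against 289.5, 348 and 344 CPM with DMSO (log2 fold change -0.63, SE 0.10, edgeR adjusted p = 2.32e-05), PIM2 averaged 49.8 ± 2.27 CPM with GSK-LSD1 and 69.5 ± 7.15 CPM with DMSO, and FLT3 itself averaged 614 ± 17.8 CPM with GSK-LSD1 and 697 ± 12 CPM with DMSO (log2 fold change -0.18, SE 0.03, edgeR adjusted p = 0.000295). PIM1 did not overlap between the groups, and SH2B3, an adaptor that restrains this signal, rose (179 ± 0.546 CPM with GSK-LSD1 and 136 ± 4.83 CPM with DMSO).

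Of histone lysine demethylases and methyltransferases 10 rose and 4 fell of 35 tested members, at a median log2 fold change of 0.05. The number that rose was 6 with only the 6 libraries of this comparison in the fit, and the number that fell was 2 without DMSO replicate A. KDM7A, a Jumonji-type histone demethylase, had 19.4, 19 and 20.9 CPM with GSK-LSD1, against 2.51, 2.95 and 2.98 CPM with DMSO (log2 fold change 2.81, SE 0.11, edgeR adjusted p = 1.43e-13). KDM1B, the other enzyme of the LSD1 family, had 37.6, 36.8 and 38.3 CPM with GSK-LSD1, against 47.8, 47.7 and 43.8 CPM with DMSO (log2 fold change -0.31, SE 0.04, edgeR adjusted p = 2.22e-06). KDM7A was higher and KDM1B lower in every GSK-LSD1 library. Among arginine methyltransferases and cofactors 1 rose and 5 fell of 14 tested members, at a median log2 fold change of -0.09, and 2 fell without DMSO replicate A or GSK-LSD1 replicate C. PRMT5, the symmetric dimethylation enzyme, averaged 92 ± 3.48 CPM with GSK-LSD1 and 107 ± 6.85 CPM with DMSO (log2 fold change -0.22, SE 0.06, edgeR adjusted p = 0.00572), and CARM1 averaged 86.1 ± 2.99 CPM with GSK-LSD1 and 71.1 ± 1.95 CPM with DMSO (log2 fold change 0.28, SE 0.05, edgeR adjusted p = 0.000367).

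Lists for other cell types held few expressed members. For erythroid and megakaryocyte genes 1 rose and 2 fell of 10 tested members, at a median log2 fold change of -0.20 and 24 members in all, and their summed level was 54.9 to 62.1 CPM with GSK-LSD1, against 53.8 to 65.2 CPM with DMSO. For mast cell, basophil and eosinophil genes 2 rose and 2 fell of 11 tested members, at a median log2 fold change of -0.04, with a sum of 184 to 193 CPM with GSK-LSD1, against 311 to 336 CPM with DMSO. That sum was mostly MS4A3, a marker of granulocyte and monocyte progenitors as well as basophils, which had 167, 169 and 158 CPM with GSK-LSD1, against 309.8, 306 and 269.5 CPM with DMSO (log2 fold change -0.84, SE 0.06, edgeR adjusted p = 5.35e-10). For T and NK cell genes 2 rose and 1 fell of 10 tested members, at a median log2 fold change of 0.40, with a sum of 41 to 43.8 CPM with GSK-LSD1, against 34.8 to 38.4 CPM with DMSO. For epithelial, fibroblast and endothelial genes 3 rose and 1 fell of 7 tested members, at a median log2 fold change of 0.26, with a sum of 22.2 to 25.6 CPM with GSK-LSD1, against 17.1 to 19.7 CPM with DMSO. The counts called in these 4 lists, none above 3, changed by over 1.5 times when single libraries were left out. Their part in other results was not tested.

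Neuronal genes under REST and CoREST, which also use LSD1, were tested as a list of their own. There 5 rose and 2 fell of 17 tested members, at a median log2 fold change of 0.12, with 2 or 3 rises without DMSO replicate A or C or GSK-LSD1 replicate B or C. SYT2 accounted for a part of the summed level of 275 to 283 CPM with GSK-LSD1, against 227 to 241 CPM with DMSO. TUBB3, neuronal tubulin, had 10.1, 9.21 and 9.51 CPM with GSK-LSD1, against 5.29, 6.71 and 6.27 CPM with DMSO (log2 fold change 0.65, SE 0.10, edgeR adjusted p = 4.58e-05), and STMN2, SNAP25 and CHGA had at most 3 counts in a library. Of semaphorins, plexins and axon guidance receptors 6 rose and 4 fell of 18 tested members, at a median log2 fold change of 0.06. RTN4R, the Nogo receptor, had 2.43, 3.28 and 2.78 CPM with GSK-LSD1, against 9.03, 7.93 and 7.67 CPM with DMSO (log2 fold change -1.53, SE 0.12, edgeR adjusted p = 2.78e-09), opposite to its relative RTN4RL1, and SEMA7A, a semaphorin of leukocytes, had 11.6, 12.4 and 13.6 CPM with GSK-LSD1, against 21.6, 22.9 and 22.2 CPM with DMSO (log2 fold change -0.83, SE 0.07, edgeR adjusted p = 1.56e-08). Of pre-B and lymphoid priming genes 2 rose and 4 fell of 19 tested members, at a median log2 fold change of -0.02, with 1 rise without DMSO replicate B or GSK-LSD1 replicates A or B. CD72, a B cell coreceptor, had 6.62, 5.64 and 6.66 CPM with GSK-LSD1, against 12.7, 14.7 and 14.8 CPM with DMSO (log2 fold change -1.16, SE 0.11, edgeR adjusted p = 5.13e-08).

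Lists of energy metabolism had small median changes, while single members moved in both directions. Of 25 nuclear genes of oxidative phosphorylation 0 rose and 5 fell, at a median log2 fold change of -0.07, and 10 fell without DMSO replicate B and 3 without GSK-LSD1 replicate C. COX5B averaged 66.2 ± 2.78 CPM with GSK-LSD1 and 78.3 ± 3.97 CPM with DMSO (log2 fold change -0.24, SE 0.06, edgeR adjusted p = 0.00465). None of the 13 mitochondrial transcripts passed the test, with a median of 0.11 and a summed level of 5245 to 6332 CPM with GSK-LSD1, against 3705 to 5897 CPM with DMSO, the lowest in DMSO replicate C. In glycolysis 4 rose and 4 fell of 23 tested members, at a median log2 fold change of -0.08, and 8 fell without DMSO replicate A. PKM, pyruvate kinase, had 1190, 1234 and 1261 CPM with GSK-LSD1, against 854, 870.4 and 872 CPM with DMSO (log2 fold change 0.50, SE 0.05, edgeR adjusted p = 6e-08), PFKM averaged 9.88 ± 0.354 CPM with GSK-LSD1 and 5.16 ± 0.113 CPM with DMSO, HK1 averaged 159 ± 6.21 CPM with GSK-LSD1 and 118 ± 5.74 CPM with DMSO, and LDHA, lactate dehydrogenase, averaged 1206 ± 48 CPM with GSK-LSD1 and 1380 ± 56.6 CPM with DMSO. The kinases rose and LDHA fell.

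Transcript usage was tested for 11439 genes with at least 2 kept transcripts, 74564 transcripts in all, with limma's voom and diffSplice and Simes p-values per gene. A change of usage was called for 596 genes (5.21%), and in 49 of them the share of a transcript moved by at least 20 percentage points. Of the 596, 281 were also called at the gene level and 315 were not. The number was 405 without DMSO replicate A, 374 without DMSO replicate B, 293 without DMSO replicate C and 306 to 333 without any 1 of the GSK-LSD1 libraries. The smallest adjusted p of all was that of XBP1 (4.64e-19 in diffSplice), a stress factor gene chosen after its values were seen, in which no share moved by more than 7.6 percentage points. Among the 49 genes, UBAC2, an endoplasmic reticulum gene on chromosome 13, had the smallest (5.2e-13). Its coding transcript UBAC2-203 took 51.4%, 53.3% and 49.7% with GSK-LSD1, against 77.2%, 68.4% and 71.9% with DMSO, and the noncoding UBAC2-205 took 32.4%, 32.8% and 33.3% with GSK-LSD1, against 10.8%, 14.4% and 12.6% with DMSO. The groups did not overlap for either transcript.

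SFMBT2, a Polycomb gene, shifted between 2 coding transcripts, and SFMBT2-204 took 74.3%, 65% and 64.7% with GSK-LSD1, against 47.5%, 44.7% and 49.9% with DMSO of its counts (diffSplice adjusted p = 4.09e-09). In SYTL1, a regulator of vesicle docking, the retained-intron transcript SYTL1-203 took 74.9%, 75.9% and 68.9% with GSK-LSD1, against 52.5%, 46.1% and 38.9% with DMSO (adjusted p = 5.05e-08, diffSplice). ACOT11-202, of a thioesterase, took 79.7%, 80.3% and 75.6% with GSK-LSD1, against 53.1%, 62.6% and 52% with DMSO (diffSplice adjusted p = 2.16e-07). All 3 were higher in every GSK-LSD1 library. LTBP3-201, of a TGF-beta binding protein, took 30%, 28.7% and 32.7% with GSK-LSD1, against 7.56%, 13.1% and 10.1% with DMSO, and SLC38A1-210, of a glutamine carrier, took 38.3%, 42.8% and 30.4% with GSK-LSD1, against 12.8%, 18.6% and 14.5% with DMSO. DDX54-202, of an RNA helicase, took 84.7%, 60.5% and 79.1% with GSK-LSD1, against 55.2%, 43.9% and 61.2% with DMSO, with overlapping groups. RAPGEF2-214 took 25.4%, 28.8% and 31.9% with GSK-LSD1, against 48.6%, 43.1% and 71.7% with DMSO, but the usage call of RAPGEF2 was lost without DMSO replicate C. These shares are estimates divided between overlapping transcripts.

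**Figure D4:**
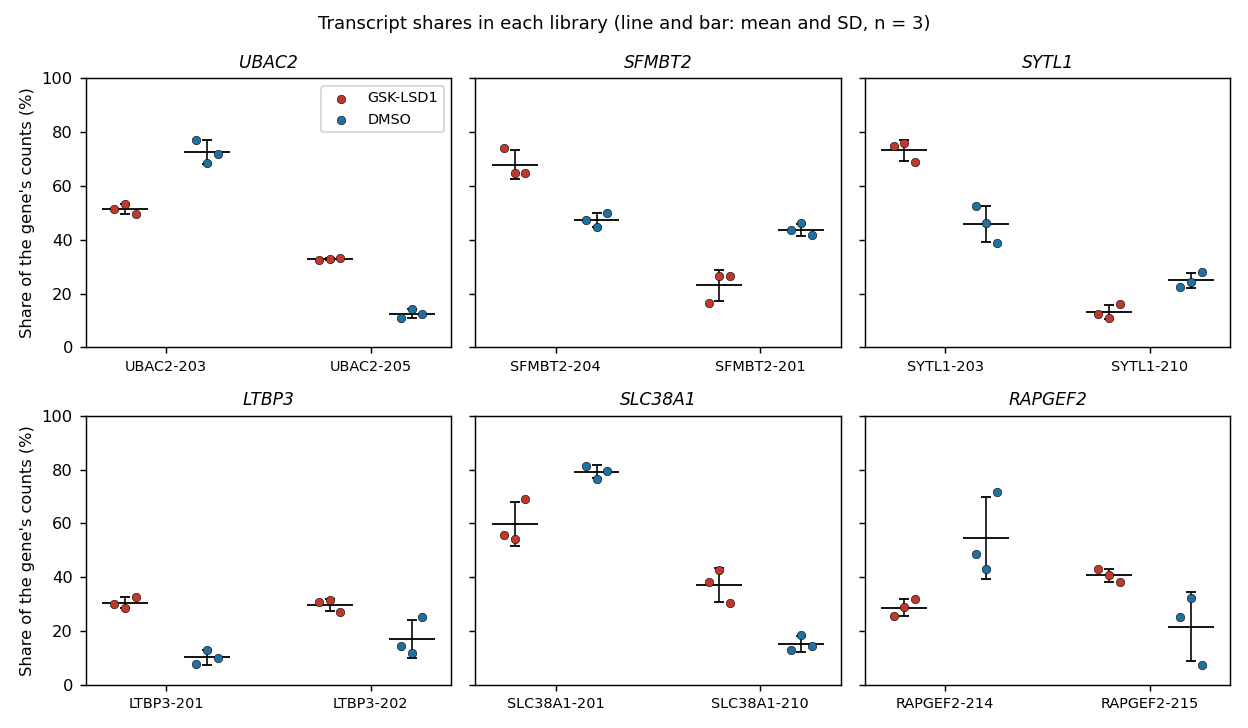
Share of a gene's estimated counts, in percent (vertical axis), on the transcripts named under each panel for 6 genes, with 1 point per library, the 3 GSK-LSD1 libraries in red left of the 3 DMSO libraries in blue, a line at the mean and a bar for the SD (n = 3). UBAC2-203 falls to a mean of 51.5%, against 72.5% with DMSO, and SYTL1-203 reaches 73.2%, against 45.8% with DMSO.

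Over all genes, transcripts annotated as retained introns took 5.40 ± 0.128% of the paired counts with GSK-LSD1 and 5.16 ± 0.061% with DMSO (n = 3 each). The two-sided exact permutation p was 0.1, the smallest that 3 against 3 libraries can give. Targets of nonsense-mediated decay took 2.45 ± 0.00351% with GSK-LSD1 and 2.52 ± 0.0275% with DMSO (exact permutation p = 0.1). Coding transcripts took 89.4 ± 0.156% with GSK-LSD1 and 89.6 ± 0.0473% with DMSO (exact permutation p = 0.2). The first of these classes was higher and the second lower in every GSK-LSD1 library, by small amounts.

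The response to GSK-LSD1 was measured again in cells that also received PRT220 or MS023, in libraries other than the 6 above. Added to PRT220, GSK-LSD1 raised 3227 genes (19.4%) and lowered 3123 (18.8%). Added to MS023, it raised 3326 (20%) and lowered 3333 (20%). Of the 2925 genes that rose with GSK-LSD1 alone, 2125 (72.6%) also rose on top of PRT220, 2309 (78.9%) on top of MS023 and 1933 (66.1%) on both. Of the 2494 that fell, 1965 (78.8%), 2021 (81%) and 1767 (70.9%) did so. The low RRP9 level of DMSO replicate C was also found in PRT220 replicates A, B and C and in replicate C of PRT220 with GSK-LSD1. Of the MS023 libraries, replicates A and C without GSK-LSD1 had it (1.69 and 0.677 CPM), and replicate B with GSK-LSD1 (0.793 CPM). It was commoner without GSK-LSD1 in each comparison. With a term for it, 1865 genes rose and 1607 fell alone, with PRT220 and with MS023. Its part in this agreement was otherwise not tested. Of the 560 that rose at least 2-fold, 450 (80.4%) were called higher in both other backgrounds, and of the 226 that fell at least 2-fold, 139 (61.5%) were called lower in both. The median log2 fold change of those 560 genes was 1.45 with PRT220, 1.56 with MS023 and 1.64 alone. MHC class II genes had 12 higher and 0 lower of 15 on PRT220, cholesterol synthesis genes had 0 higher and 22 lower of 24, and neutrophil granule genes had 3 higher and 12 lower of 15.

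The effect itself differed with PRT220 for 90 genes (0.541%). Of these 71 were called with GSK-LSD1 alone, and for 60 of the 71 the change was smaller or opposite with PRT220, while for 11 it was larger. The 71 were picked by their change alone, which is also subtracted in the difference, so the split is pushed towards smaller changes. The log2 fold change of IGF1 was 3.33 with PRT220 and 4.65 alone (difference -1.31, SE 0.21, edgeR adjusted p = 0.00309). In CPM, IGF1 averaged 217 with both inhibitors and 21.6 with PRT220. KDM7A went the other way, with 4.00 with PRT220 and 2.81 alone (difference 1.20, SE 0.16, edgeR adjusted p = 0.00103). LYZ had 0.88 with PRT220 and 1.43 alone (difference -0.55, SE 0.09, edgeR adjusted p = 0.00309), CD84 had 0.86 with PRT220 and 1.78 alone (difference -0.91, SE 0.12, edgeR adjusted p = 0.000672), and TLR1 had 0.56 with PRT220 and 1.19 alone (difference -0.63, SE 0.09, edgeR adjusted p = 0.0022). SERPINB2, a serpin of monocytes chosen after its values were seen, showed a log2 change of 0.41 with PRT220 and 2.32 alone, a difference of -1.91 (edgeR adjusted p = 0.000948). All 3 PRT220 libraries and replicate C of the combination had the low RRP9 level of DMSO replicate C. With a term for those libraries 85 genes were called, and the differences were -1.30 for IGF1, 1.22 for KDM7A and -1.89 for SERPINB2. The number fell to 39 without GSK-LSD1 replicate B, 41 without replicate A and 48 without replicate C, and to 53 without DMSO replicate B.

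With MS023 the effect of GSK-LSD1 differed for 0 genes (0%) in edgeR, where 1356 (8.15%) had an unadjusted p below 0.05. DESeq2 called 19 genes and limma-voom called 0. A p above the threshold does not show that the effects were equal.

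**Figure D5:**
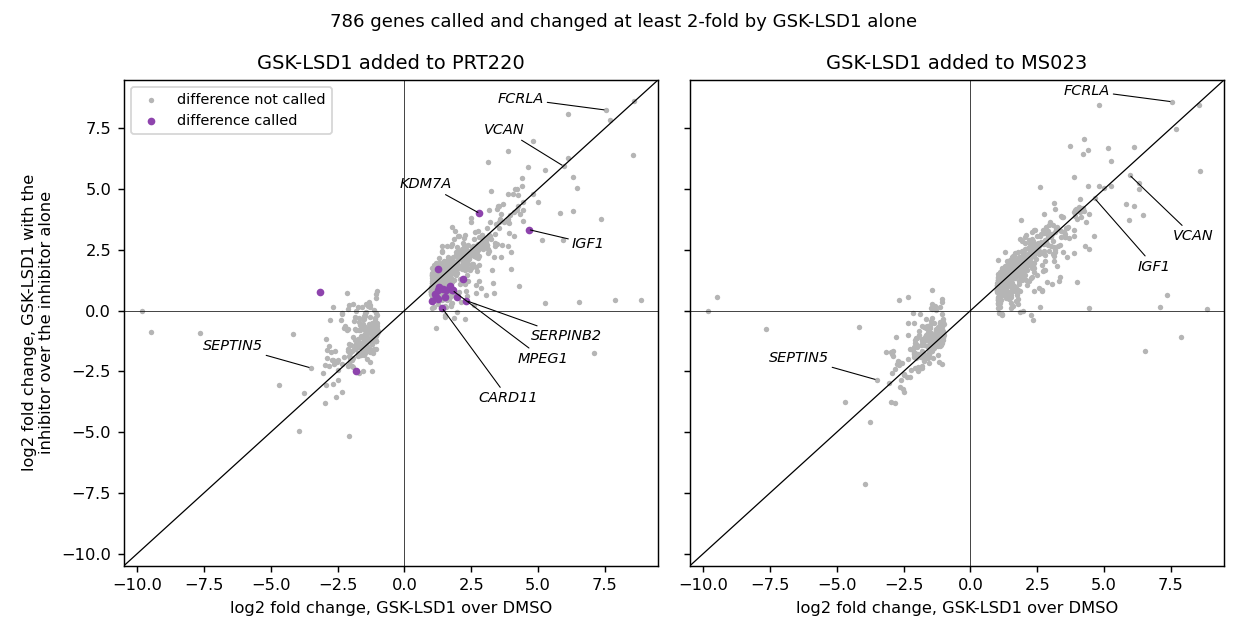
Log2 fold change of GSK-LSD1 added to PRT220 (left) or MS023 (right) on the vertical axis against that of GSK-LSD1 over DMSO on the horizontal axis, for the genes called and changed at least 2-fold by GSK-LSD1 alone, with a line at equality and genes whose effect differs in purple. Of the genes that rose at least 2-fold alone, 98.8% also lie above 0 with PRT220 and 98.4% with MS023.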

How the data were processed

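Per the labels' protocols, the RNA-seq libraries were poly(A)-selected and did not keep strand, and reads had 101 bases. The authors deposited a gene table and a transcript table of estimated counts (expected counts, many not whole) for 24 libraries, not scaled between libraries. That unit was read from the values. The submitters' processing notes name STAR 2.7.3a, DESeq2 1.28.1, Salmon 1.2.1, R 4.0.0 and the build GRCh38, with no role or order. The annotation release is not given in the sources used here, and a correction for transcript length or a filter, if one was used, could change the levels.

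Gene counts were rounded and fitted in R 4.3.3 with edgeR 4.0.16 (TMM scaling, filterByExpr, quasi-likelihood test, Benjamini-Hochberg adjustment over 16640 of 38048 genes), with all 24 libraries in 1 fit and 1 coefficient per group. GSK-LSD1 was set against DMSO, the combinations against PRT220 and MS023, and these effects against each other. Calls needed an adjusted p under 0.05. A standard error is the log2 fold change divided by the square root of F. Transcript usage was tested with limma 3.58.1 (voom, diffSplice, Simes) on transcripts with at least 10 counts in 3 libraries. Both procedures were tested on simulated data. Transcripts were paired with genes by GENCODE 29, which also gave gene coordinates on GRCh38, for 167049 of 178398 transcripts and 35035 genes. Symbols came from a name table for 29718 genes. No 2 libraries of the groups compared were identical.

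The 45 gene lists, the comparison and the rule for named genes were chosen with earlier results of these data known. Named were the 15 largest changes per direction, the 8 largest gains and losses of CPM, the 8 risen genes with a symbol of highest level among those with a DMSO mean below 0.5 CPM, up to 6 called members per list (3 of highest level where fewer than 3 are called), long noncoding genes of at least 2 CPM, all members of the CoREST and myeloid factor lists, and the 8 genes of smallest adjusted p for transcript usage with a share moved by at least 20 points. The text uses fewer, and adds some list members for their known role. Some genes that the rule names are not reported here. Alternatives were DESeq2 1.42.0, limma-voom, RLE or no scaling, other filters, fewer libraries, a replicate block, a term for the libraries of low RRP9 and leaving out each library. PRT220 libraries could not be compared within the libraries of ordinary RRP9 level, since all 3 have the low level.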

Additional observations from a re-analysis of the deposited data

Results flagged for a closer look

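For 13 of the named genes the effect of GSK-LSD1 differed with PRT220 present, by a test of the difference itself in edgeR. Many were named for their change alone, which is also subtracted in that difference, and this choice favours a smaller change with PRT220. The change was smaller with PRT220 for these risen genes: ABCA6 (log2 fold change 1.29 with PRT220 and 2.20 alone, difference -0.91), CD84 (0.86 and 1.78, -0.91), IGF1 (3.33 and 4.65, -1.31), JAML (0.49 and 1.25, -0.76), LAMP5 (0.05 and 0.30, -0.25), LYZ (0.88 and 1.43, -0.55), SOX4 (0.47 and 0.78, -0.31) and TLR1 (0.56 and 1.19, -0.63). It was larger for KDM7A (4.00 with PRT220 and 2.81 alone, difference 1.20), RAPGEF2 (1.72 and 1.26, 0.46) and IL7R, which fell (-2.50 and -1.81, -0.69). KIT, a receptor of progenitors and mast cells, had -0.80 with PRT220 and 0.33 alone, a difference of -1.13, and its call alone was lost without DMSO replicate A (edgeR adjusted p = 0.0951), without GSK-LSD1 replicate B (0.0883) and with only the 6 libraries of the comparison (0.0705). IRF5 had -0.39 with PRT220 and -0.04 alone, a difference of -0.36. The edgeR adjusted p of the difference lay between 0.000672 (CD84 and KIT) and 0.0477 (IL7R). With a term for the libraries of low RRP9 the adjusted p of IL7R was 0.0635. All 3 PRT220 libraries and 1 of the 3 with both inhibitors had that low level, and its part in these differences was otherwise not tested. None of the named genes differed in this way with MS023.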

How the results depend on the processing

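The alternatives called 4582 to 5688 genes for GSK-LSD1 against DMSO. Of the 5419 called genes, 4430 to 5334 were called again, and 0 changed sign. DESeq2 gave 2612 higher and 2996 lower genes, no scaling beyond the total count gave 2627 and 3061, and RLE scaling gave 2589 and 2940. Of 295 genes picked by the naming rule that passed the test, 251 kept their call under every alternative in which they were tested and 44 missed the threshold under at least 1. The replicate block gave 5248 called genes, 2845 higher and 2403 lower, and among those 295 ended the calls of CD200, CD3G, CSF1, EEF2, KRT18 and LINC01667. Deviations of libraries with the same letter correlated at 0.121 (A), 0.0425 (B) and 0.149 (C), and each GSK-LSD1 library correlated best with the DMSO library of its letter. The value of B was under 0.1, so the letters were not taken to pair the samples. The 90 genes whose effect differed with PRT220 numbered 53 with the 12 libraries of the 4 groups, 198 with DESeq2, 54 with no filter, 61 with the replicate block and 39 to 81 with 1 library left out. The 0 genes with MS023 numbered 19 with DESeq2, 2 with the 16 libraries of ordinary RRP9 level and 0 to 1 with 1 library left out. The 596 transcript usage calls numbered 231 with the stricter filter, 355 with the replicate block, 228 with an F test and 293 to 405 with 1 library left out. The cause was not tested, except that fewer libraries or transcripts entered several of these fits. Genes below about 1 CPM rest on few counts, and their fold changes are the least certain.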

Other observations

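Part of the genes that rose at least 2-fold lay next to each other, a pattern noticed in these data and given as a description with no test. Of 519 such genes with coordinates, 94 (18.1%) stood in 40 runs of adjacent tested genes, 9 of them with 3 or more genes. Of 219 genes that fell at least 2-fold, 23 (10.5%) stood in 11 runs. Such rises made up 3.37% and such falls 1.36% of all tested genes, so the shares in runs have unlike baselines. The share that neighbours would reach by chance was not worked out. The longest run had 6 genes on chromosome 1 (161524540 to 161728143): HSPA6, FCGR2C, HSPA7, FCGR2B, FCRLA and FCRLB. Other runs held the S100A9, S100A12 and S100A8 genes of calcium-binding alarmins on chromosome 1 (153357854 to 153391188), the lipid-presenting CD1D, CD1A and CD1C (chromosome 1, 158179947 to 158293630), the immunoglobulin receptors FCMR, PIGR and FCAMR (chromosome 1, 206904386 to 206970625) and the lectins SIGLEC9 and SIGLEC7 with a pseudogene on chromosome 19. Among falling genes the run of 3 was PRTN3, ELANE and CFD on chromosome 19 (840960 to 863630), which encode serine proteases, and RNASE3 and RNASE2 were adjacent on chromosome 14. Several runs are families of similar sequence whose reads could be shared, and the runs were chosen after their values were seen.

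By chromosome, the share of tested genes that rose at least 2-fold lay between 1.40% on chromosome 18 (3 of 214 genes) and 5.00% on chromosome 17 (49 of 980), against 3.37% over all genes. Chromosome 21 had 7 of 160 genes (4.38%) that fell at least 2-fold, against 1.36% over all genes, among them the adjacent OLIG2 and OLIG1.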
